A study of Mus musculus with 4 samples.

Results

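The genes described here are 45 genes of mitosis and of the spindle checkpoint, listed by name for their known roles, at a time when earlier results of these arrays were known. A probe set that the platform annotation assigned to a single gene was found for 44 of them, among 19938 genes with such a probe set, and all 44 were bright enough to be tested. *Ccnb1* was not analysed here. Transcript levels came from whole-transcript oligonucleotide arrays of wild-type CD8+ T cells from C57BL/6 mice, taken from spleen and lymph node by magnetic negative selection and, per the design text, naive at the start. All cultures ran for 2 days with IL-2 while IFN-γ was blocked by an antibody. CTL (cytotoxic T lymphocyte) cultures received nothing further of the listed cytokines, whereas Tc17 cultures, which turn towards IL-17 production, also received IL-6 and TGF-β. The study's methods name anti-CD3 and anti-CD28 antibodies as the priming signal of Tc17 cells, and for the CTL cultures the sources used here do not state it. The study's methods describe the mice as age-matched young adults, and the labels do not state whether the replicates came from separate animals. There were 2 biological replicates per group, 4 arrays in all, and p-values reflect no more than the spread between these arrays, which may be technical.

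Mitosis is driven by the kinase CDK1 with its B-type cyclins, which are switched on by CDC25 phosphatases and by the kinase PLK1. Chromosomes are then condensed and attached through kinetochores to spindle microtubules. The spindle assembly checkpoint holds back CDC20 and the anaphase promoting complex until every kinetochore is attached, after which securin and cyclin B are degraded and separase cuts the chromosomes free. Most of these transcripts rise together in the G2 and M phases, and activated CD8+ T cells, which divide fast, are known for high levels of them. Many of their promoters hold a cell cycle genes homology region (CHR), which MuvB complexes bind together with B-MYB and FOXM1 or with repressors, often next to CCAAT boxes, which NF-Y binds.

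The promoters of 4 members with some of the largest differences are shown. Members that passed the test described further on came first, then those of largest difference, where a window held either element. Each of the 4 held both. *Cenpa* and *Ccnb2* lay higher and *Cdk1* and *Ncapg* lower on both Tc17 arrays, as described further on. Each line is a RefSeq window of 300 bases from GRCm38.p6, from 250 bases before the start site to 50 after it, 5′ to 3′ on the gene's strand, in which capitals mark each CHR match (here always spelled TTTGAA) and each CCAAT box, which reads ATTGG where it lies on the other strand. The windows are chr5:30666636-30666935 (+) for *Cenpa*, chr10:69352863-69353162 (-) for *Cdk1*, chr9:70421505-70421804 (-) for *Ccnb2* and chr5:45669675-45669974 (+) for *Ncapg*.
Cenpa: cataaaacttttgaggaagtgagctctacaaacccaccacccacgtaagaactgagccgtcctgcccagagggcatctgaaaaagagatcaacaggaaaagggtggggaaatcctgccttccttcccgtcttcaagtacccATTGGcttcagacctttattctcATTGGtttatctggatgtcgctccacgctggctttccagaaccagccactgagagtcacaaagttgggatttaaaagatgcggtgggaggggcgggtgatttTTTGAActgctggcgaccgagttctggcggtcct
Cdk1: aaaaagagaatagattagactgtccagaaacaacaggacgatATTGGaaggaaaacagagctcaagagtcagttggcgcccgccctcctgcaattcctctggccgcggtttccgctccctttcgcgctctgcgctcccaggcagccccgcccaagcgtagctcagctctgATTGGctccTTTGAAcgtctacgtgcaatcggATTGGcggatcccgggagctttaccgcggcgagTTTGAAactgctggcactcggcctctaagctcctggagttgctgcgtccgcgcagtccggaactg
Ccnb2: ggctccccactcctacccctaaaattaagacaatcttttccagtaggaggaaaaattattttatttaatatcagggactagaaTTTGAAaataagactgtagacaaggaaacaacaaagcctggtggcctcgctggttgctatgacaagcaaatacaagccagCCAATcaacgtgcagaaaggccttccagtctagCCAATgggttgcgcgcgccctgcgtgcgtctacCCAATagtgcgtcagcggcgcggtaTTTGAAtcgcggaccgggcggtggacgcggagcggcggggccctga
Ncapg: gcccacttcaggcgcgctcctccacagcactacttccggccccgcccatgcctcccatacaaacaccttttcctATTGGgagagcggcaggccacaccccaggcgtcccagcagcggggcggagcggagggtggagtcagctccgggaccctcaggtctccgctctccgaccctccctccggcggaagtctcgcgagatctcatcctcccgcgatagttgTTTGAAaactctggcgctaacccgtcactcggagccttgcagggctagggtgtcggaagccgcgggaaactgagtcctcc

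Windows were given for 36 of the 44 members, 39 windows in all. A CHR, searched on both strands with the spelling TTTGAA or the spelling TTCGAA, stood in 32 of the 39 (82.1%), against 19.2% of all 32851 windows of the same length. A CCAAT box stood in 30 of them (76.9%, against 37.4% of all windows), and 29 windows held both (74.4%, against 7.52%). A CHR match and a CCAAT match can share at most 1 base. The CHR match nearest to the start site lay within 50 bases of it in 28 of the 32 member windows (87.5%), while this was so for 27.6% of all windows with a match. Of 96 windows of other mitosis genes, a list described further on, 44.8% held a CHR, 53.1% a CCAAT box and 25% both. In 72.1% of their windows with a CHR the nearest match lay within 50 bases. In the windows printed above the TTTGAA nearest to the start site (position 0) began at -15 in *Cdk1*, at 4 in *Ccnb2*, at 16 in *Cenpa* and at -30 in *Ncapg*, and *Cdk1* and *Ccnb2* each held a further one upstream. A match of these letters is a description of the window and not a shown binding site.

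Tc17 cells and CTLs differed little in their levels of mitosis transcripts. Only *Cenpa* and *Nusap1* passed the test, and both rose, by 1.37-fold and 1.35-fold. None of the 44 members fell past the threshold, and none reached a 2-fold difference, which 3.09% of all genes tested did. At so low a share 44 genes may hold none, so the lack of a 2-fold difference does not set the members apart. Values are RMA intensities, which the authors deposited and which are taken as log2, and differences are Tc17 minus CTL. The test was limma's moderated test over 14953 genes, in which a gene passed at a Benjamini-Hochberg adjusted p under 0.05. Over all tested genes 8.22% were called higher and 7.44% lower, 15.7% together, while 4.55% of the members were called. With every array centred on its median, the calls over all genes shifted from 1229 higher and 1113 lower to 990 higher and 1434 lower. At an unadjusted p under 0.05, 4 members were higher and 3 lower, where the shares over all genes were 14.2% and 12.8%. The differences of the 44 members ran from -0.38 for *Cdk1* to 0.45 for *Cenpa*, with a median of 0.05 against 0.02 over all genes tested. Differences were above 0 in 27 members and below 0 in 17, and with median centring 9 of the former, all of 0.06 or less, turned below 0.

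The intervals bound what could have been missed. The 95% interval of each member's difference, from the same fit and not widened for the number of genes, lay within a 2-fold change either way in all 44 members, with the outermost bounds at -0.71 and 0.73. It lay within a 1.5-fold change in 34 members. Over all genes tested, 68.6% of intervals lay within 1.5-fold and 92.2% within 2-fold, so most genes share these bounds. Standard errors of the members ran from 0.12 to 0.19. The moderated test draws each gene's variance towards that of all genes, here with 8.98 prior against 2 residual degrees of freedom. A standard error thus reflects mostly the spread over all genes and less that of the gene itself. A p that misses the threshold does not show equal levels, and with 2 arrays per group a difference inside these bounds may have been missed. In mixed cultures a lower share of dividing cells and less transcript per dividing cell cannot be told apart. Quantile normalisation within RMA also hides any change of total RNA per cell.

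**Figure D1:**
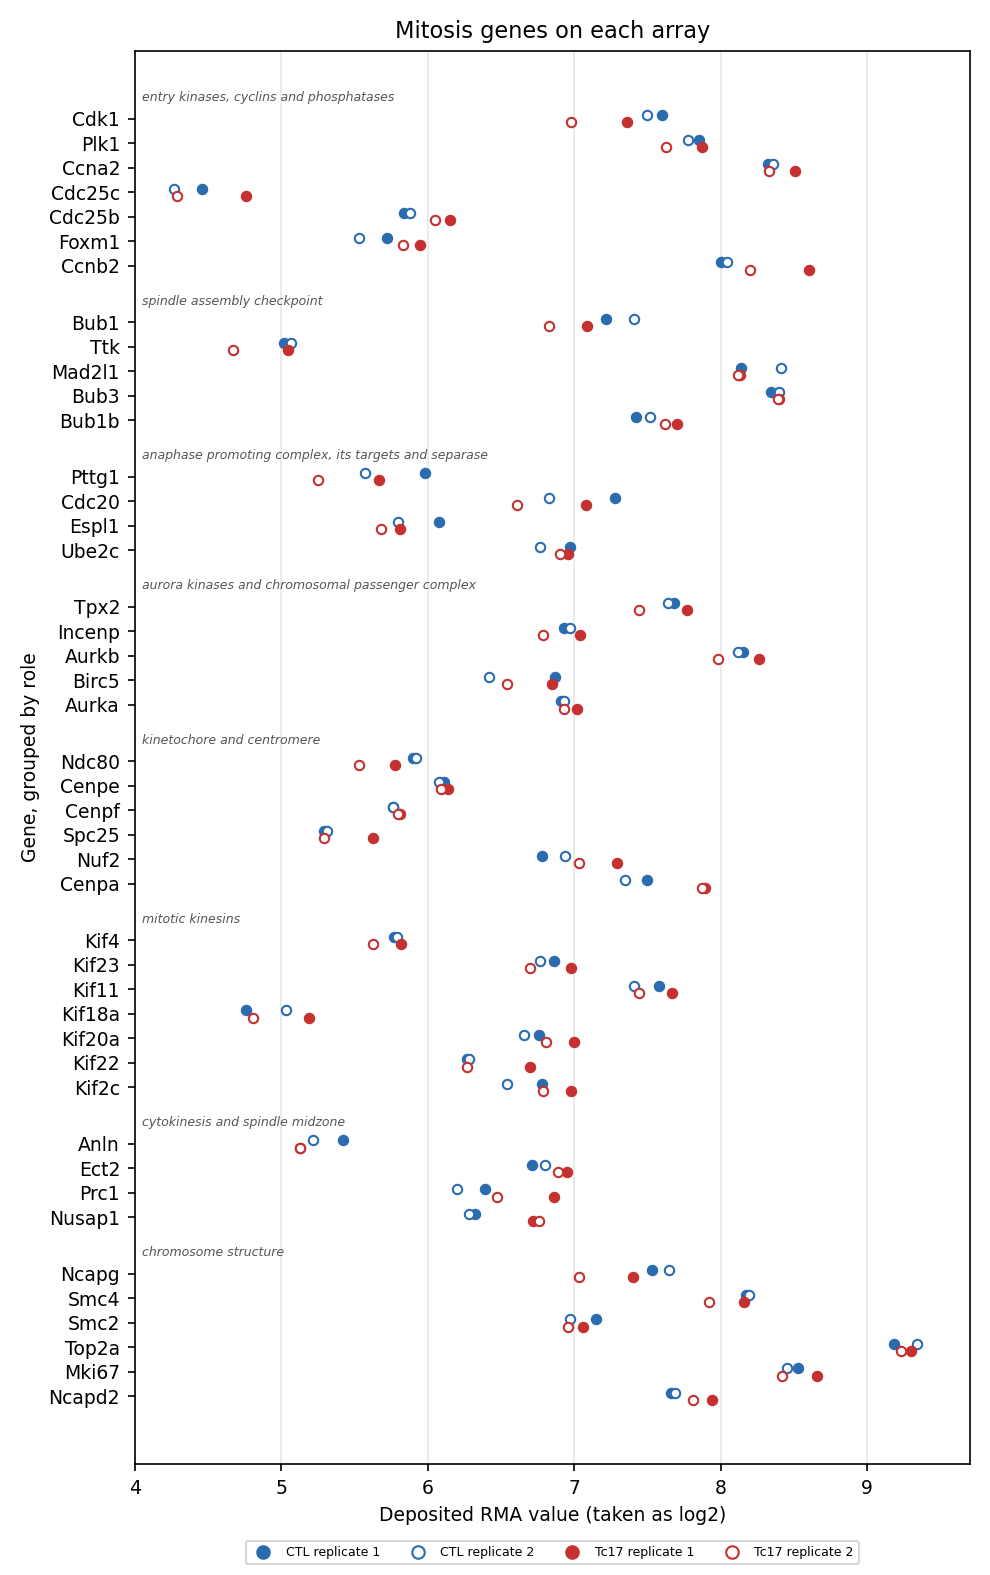
Level of the 44 members on each array (RMA value taken as log2, horizontal axis), by role and, within a role, by the difference between the groups. CTL arrays are blue circles and Tc17 arrays red ones, with replicate 1 filled and replicate 2 open. The open red circle lies left of the filled one for 42 of the 44 genes, and the values of different genes come from different probe sets and are not to be ranked against each other.

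*Cenpa* encodes the histone H3 variant that marks the centromere. Its values were 7.50 and 7.35 in the CTL arrays and 7.89 and 7.87 in the Tc17 arrays. Both Tc17 arrays lay above both CTL arrays, and the difference was 0.45 ± 0.13 (log2 difference ± SE, limma adjusted p = 0.0362). *Nusap1*, whose protein bundles spindle microtubules near chromosomes, was at 6.32 and 6.28 in CTLs and at 6.72 and 6.76 in Tc17 cells. The gap between the groups was again wider than that within either group, with a difference of 0.44 ± 0.13 (limma adjusted p = 0.0361). Both calls sat close to the threshold. They were lost when any of the 4 arrays was left out, where the difference stayed between 0.37 and 0.52 for *Cenpa* (limma adjusted p from 0.0642 to 0.181) and between 0.42 and 0.46 for *Nusap1* (limma adjusted p from 0.0945 to 0.152), and also with median centring and when every row of the table was tested. The *Nusap1* window held neither motif searched.

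Among the kinases, cyclins and phosphatases of mitotic entry, none of the 7 tested members passed, where 15.7% of all genes tested did. At that share so short a list can hold none. *Cdk1* and the cyclin gene *Ccnb2* pointed opposite ways, and the difference between them was not tested. *Cdk1* was at 7.60 and 7.50 in CTLs and at 7.36 and 6.98 in Tc17 cells. Both Tc17 arrays were lower, replicate 2 by far the most, and the difference was -0.38 ± 0.15 (limma adjusted p = 0.120). *Ccnb2*, which encodes cyclin B2, was at 8.00 and 8.04 in CTLs and at 8.60 and 8.20 in Tc17 cells. Here both Tc17 arrays were higher, replicate 1 the most (0.38 ± 0.15, limma adjusted p = 0.130). For each gene the call turned on 1 Tc17 array. Without Tc17 replicate 2, *Cdk1* was at a difference of -0.20, and without Tc17 replicate 1 it was -0.57 and passed, where 6.53% of all genes were called lower (limma adjusted p = 0.0411, 0.0411 to 0.604 over the fits that left out an array). *Ccnb2* was at a difference of 0.18 without Tc17 replicate 1, and without Tc17 replicate 2 it was 0.58 and passed, where 5.58% of all genes were called higher (limma adjusted p = 0.0450, 0.0450 to 0.583 over those fits).

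*Ccna2*, the cyclin A gene of S phase and early mitosis, was at 8.32 and 8.36 in CTLs and at 8.51 and 8.33 in Tc17 cells, so the groups overlapped (0.08 ± 0.13). *Plk1* overlapped as well, at 7.85 and 7.78 against 7.87 and 7.63 (-0.06 ± 0.14). The transcription factor gene *Foxm1*, which drives many of the other members, was at 5.72 and 5.53 in CTLs and at 5.95 and 5.83 in Tc17 cells, a difference of 0.26 ± 0.13 (limma adjusted p = 0.242). Of the genes for the phosphatases that activate CDK1, *Cdc25b* differed by 0.24 ± 0.13 without overlap of the groups, and *Cdc25c* by 0.16 ± 0.16 with overlap.

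None of the 5 spindle assembly checkpoint genes passed (15.7% of all genes tested did), and their median difference was -0.15. *Bub1*, a checkpoint kinase of the kinetochore, was at 7.22 and 7.41 in CTLs and at 7.09 and 6.83 in Tc17 cells. Both Tc17 arrays lay below both CTL arrays (-0.36 ± 0.14, limma adjusted p = 0.127). Its relative *Bub1b*, which encodes the CDC20 inhibitor BUBR1, pointed the other way at 7.42 and 7.52 against 7.70 and 7.62 (0.19 ± 0.13, limma adjusted p = 0.392). *Bub3*, whose product brings both to kinetochores, stayed between 8.34 and 8.40 on all 4 arrays. *Mad2l1*, which encodes the CDC20-binding MAD2, differed by -0.15 ± 0.14, with a single CTL array at 8.41 and the other 3 arrays between 8.12 and 8.14. *Ttk*, the gene of the kinase MPS1, differed by -0.18 ± 0.15, with Tc17 replicate 2 at 4.67 and the other arrays between 5.02 and 5.07.

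The genes that carry out anaphase overlapped between the groups in all 4 cases, while 54.4% of all genes tested did not overlap. *Cdc20*, the activator of the anaphase promoting complex, was at 7.28 and 6.83 in CTLs and at 7.08 and 6.61 in Tc17 cells (-0.21 ± 0.19), so the arrays within each group lay further apart than the group means. The same was true of *Pttg1*, the securin gene, at 5.98 and 5.57 against 5.67 and 5.25 (-0.32 ± 0.18, limma adjusted p = 0.290). Its difference was -0.11 without CTL replicate 1 or Tc17 replicate 2 and -0.53 without either of the other arrays, and it passed in none of these fits. *Espl1*, the separase gene, differed by -0.20 ± 0.14, and *Ube2c*, the ubiquitin-conjugating enzyme of the complex, by 0.07 ± 0.13.

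The aurora kinases and their partners lay closest together, with all 5 differences between -0.06 and 0.06. Every interval lay within 1.5-fold, as did 68.6% over all genes tested. Under median centring or cyclic loess 4 of the 5 signs turned. *Aurkb*, the kinase of the chromosomal passenger complex, was at 8.15 and 8.12 in CTLs and at 8.26 and 7.98 in Tc17 cells, so the CTL arrays fell between the Tc17 arrays. *Incenp*, its scaffold, and *Tpx2*, the spindle activator of aurora A, had the same arrangement, with Tc17 replicate 1 at the top and Tc17 replicate 2 at the bottom. *Birc5*, which encodes survivin, differed by 0.05 ± 0.17 and *Aurka* by 0.06 ± 0.13.

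At the kinetochore and centromere, *Cenpa* alone passed among 6 members (15.7% of all genes tested passed). Of the NDC80 complex, which holds on to microtubules, *Nuf2* was at 6.78 and 6.94 in CTLs and at 7.29 and 7.03 in Tc17 cells, and *Ndc80* at 5.90 and 5.92 against 5.78 and 5.53. The groups did not overlap for either gene, with Tc17 arrays higher for *Nuf2* (0.30 ± 0.14, limma adjusted p = 0.193) and lower for *Ndc80* (-0.25 ± 0.14, limma adjusted p = 0.266). Of its other subunits, *Spc25* differed by 0.16 ± 0.14, and *Spc24*, which is no member and was named after its values were seen, by -0.45 ± 0.14 with both Tc17 arrays lower (limma adjusted p = 0.0529). None of the 4 passed, and the differences between them were not tested. The large kinetochore proteins' genes *Cenpe*, a kinesin, and *Cenpf* differed by 0.02 ± 0.12 and 0.05 ± 0.12.

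Of 7 mitotic kinesin genes none passed, where 15.7% of all genes tested did. Each of their intervals lay within 1.5-fold, as did 68.6% over all genes tested. The largest difference was that of *Kif2c*, which encodes the microtubule depolymerase MCAK, at 6.78 and 6.54 in CTLs and at 6.98 and 6.79 in Tc17 cells (0.22 ± 0.14, limma adjusted p = 0.368). The Tc17 arrays lay just above the CTL arrays. *Kif20a*, a kinesin of the central spindle, was also without overlap, at 6.76 and 6.66 against 7.00 and 6.81 (0.20 ± 0.13). *Kif22*, a chromosome-arm kinesin, differed by 0.21 ± 0.15 through Tc17 replicate 1 alone, at 6.70 against 6.27 to 6.28 on the other 3 arrays. *Kif11*, which separates the spindle poles, *Kif23*, of the midzone, *Kif4*, a chromokinesin, and *Kif18a*, which dampens chromosome oscillation, differed by -0.06 to 0.11.

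Each of the 4 genes of cytokinesis and the spindle midzone had groups without overlap, as had 54.4% of all genes tested. Next to *Nusap1*, *Prc1*, which crosslinks midzone microtubules, was at 6.39 and 6.20 in CTLs and at 6.86 and 6.47 in Tc17 cells (0.37 ± 0.15, limma adjusted p = 0.151). *Ect2*, the RHOA activator that places the cleavage furrow, was at 6.71 and 6.80 against 6.95 and 6.89 (0.16 ± 0.13, limma adjusted p = 0.474). *Anln*, the gene of the furrow protein anillin, was lower in Tc17 cells, at 5.42 and 5.22 against 5.13 and 5.13 (-0.19 ± 0.13, limma adjusted p = 0.431). Its deposited values on the Tc17 arrays were identical to the last digit, which was so for 10 of the 14953 genes tested (0.0669%).

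None of the 6 genes of chromosome structure passed, where 15.7% of all genes tested did. *Ncapg*, a subunit of condensin I, was at 7.53 and 7.65 in CTLs and at 7.40 and 7.03 in Tc17 cells, lower on both Tc17 arrays (-0.37 ± 0.15, limma adjusted p = 0.129). Its difference was -0.19 without Tc17 replicate 2, and like *Cdk1* it passed without Tc17 replicate 1, at -0.56 (limma adjusted p = 0.0466, 0.0466 to 0.619 over the fits that left out an array). *Ncapd2*, of the same complex, was higher on both Tc17 arrays, at 7.66 and 7.69 against 7.94 and 7.81 (0.20 ± 0.13). The ATPase genes of condensin, *Smc2* and *Smc4*, differed by -0.05 ± 0.13 and -0.14 ± 0.13. The proliferation marker *Mki67* was at 8.53 and 8.45 in CTLs and at 8.66 and 8.42 in Tc17 cells, with the CTL arrays between the Tc17 arrays (0.05 ± 0.14). *Top2a*, which encodes the topoisomerase that untangles sister chromatids, was at 9.18 and 9.34 against 9.30 and 9.23, a difference of 0.00 ± 0.13 with an interval from -0.28 to 0.29. A dimmer probe set of *Top2a* read between 1.70 and 2.61.

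**Figure D2:**
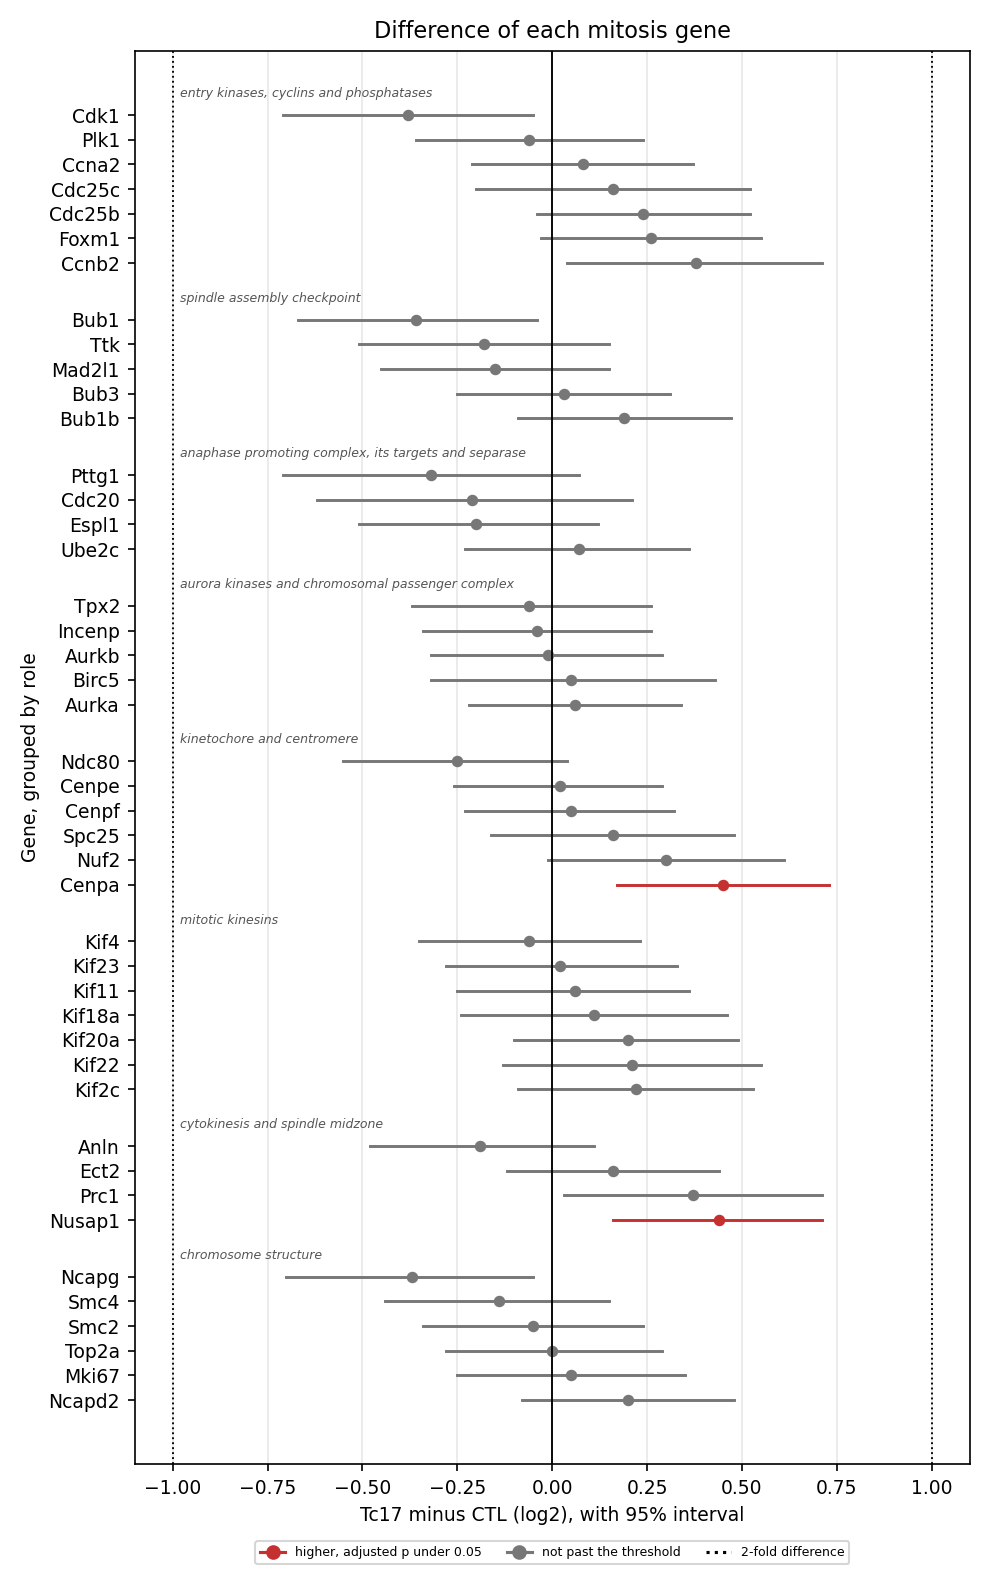
Difference between Tc17 and CTL arrays (log2, horizontal axis) of the 44 members, grouped by role, with the 95% interval of the limma fit as a bar. Red marks the 2 genes past the threshold, *Cenpa* at 0.45 and *Nusap1* at 0.44, grey the other 42, and dotted lines a 2-fold difference, which no bar reaches.

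The arrays of the Tc17 group differed from each other in these genes more evenly than the groups did. Tc17 replicate 1 lay above Tc17 replicate 2 in 42 of the 44 members, against 54.8% of all genes tested. The exceptions were *Nusap1*, lower by 0.04, and *Anln*, with equal values. The gap had a median of 0.23 over the members and reached 0.48 in *Cdc20*, against a median of 0.02 over all genes. In the CTL group replicate 1 lay above replicate 2 in 22 of the 44 members (54.0% of all genes), and the median gap was 0.01. The replicate numbers are names only, and what separated the Tc17 arrays was not tested.

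Set against single CTL arrays, most members were higher on Tc17 replicate 1 and most were lower on Tc17 replicate 2. Tc17 replicate 1 was higher in 31 of 44 members against CTL replicate 1 and in 35 against CTL replicate 2, with median differences of 0.11 and 0.15. Tc17 replicate 2 was higher in 18 and in 19 members, with medians of -0.04 and -0.01. Over all genes the 4 shares of genes higher in Tc17 ran from 50.8% to 54.4%. Groups without overlap were found in 21 members, 14 with Tc17 higher (29.6% of all genes tested) and 7 with Tc17 lower (24.8%), or 47.7% of the members against 54.4% of all genes.

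**Figure D3:**
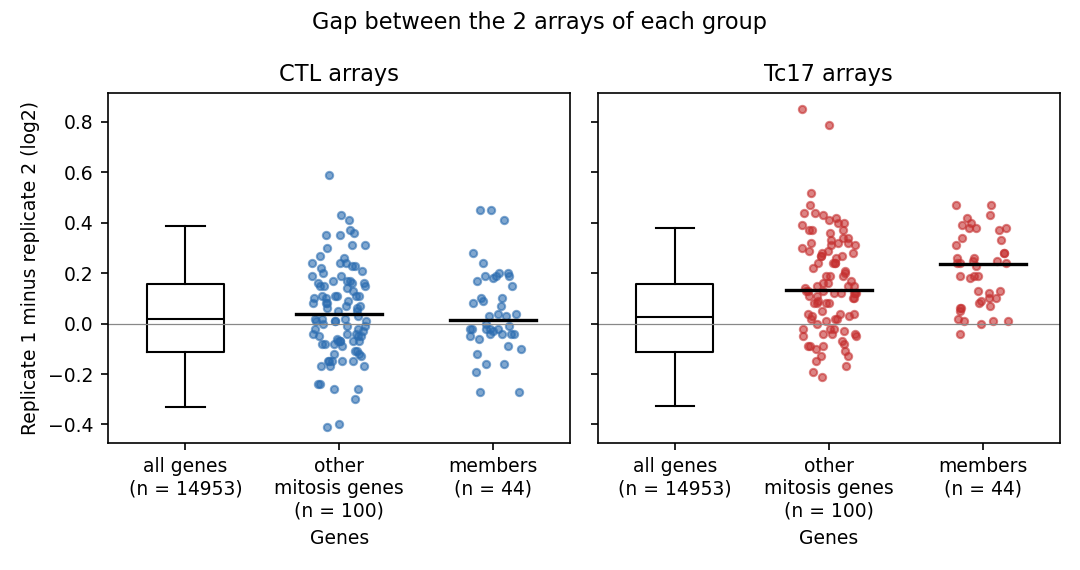
Replicate 1 minus replicate 2 (log2, vertical axis) within the CTL group (left) and the Tc17 group (right). Boxes show all 14953 genes tested (quartiles, median and the range from the 5th to the 95th percentile), points are single genes of the other mitosis list and of the members, and bars are medians. The member median was 0.23 in Tc17 and 0.01 in CTL arrays.

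A second list of 103 mitosis genes outside the members, chosen by role, had 100 genes tested. Of these 10 were lower (7.44% of all genes tested were called lower) and 1 was higher (8.22% of all genes tested), with a median difference of 0.00. Together 11% of this list were called, against 15.7% of all genes tested. The largest decrease was in *Ube2s*, the ubiquitin-chain-extending enzyme of the anaphase promoting complex, from 9.22 and 9.11 in CTLs to 8.58 and 8.42 in Tc17 cells (-0.67 ± 0.13, limma adjusted p = 0.00519). *Cenpk*, a subunit of the inner kinetochore, fell from 4.41 and 4.58 to 4.09 and 3.57 (-0.66 ± 0.17, limma adjusted p = 0.0224). *Cdc25a*, the phosphatase gene that acts from the G1/S transition onwards, fell from 7.29 and 6.92 to 6.53 and 6.38 (-0.65 ± 0.15, limma adjusted p = 0.0125). All 3 had both Tc17 arrays below both CTL arrays, as had 24.8% of all genes tested. They were named as the largest decreases, so this adds no support. *Ube2s* was called in each fit that left out an array. *Cenpk* was not called without Tc17 replicate 2, at -0.40 (limma adjusted p = 0.191), or without CTL replicate 2, at -0.58 (limma adjusted p = 0.112). The *Cdc25a* call was lost without CTL replicate 1, at -0.47 (limma adjusted p = 0.104), and without Tc17 replicate 2, at -0.58 (limma adjusted p = 0.0801). The gene that rose was *Racgap1*, which encodes the partner of the kinesin KIF23 in the centralspindlin complex of the midzone, from 7.84 and 7.92 to 8.47 and 8.35 (0.54 ± 0.13, limma adjusted p = 0.0151). It was not called without CTL replicate 1, at 0.50 (limma adjusted p = 0.0840), or without Tc17 replicate 1, at 0.48 (limma adjusted p = 0.0833).

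By role, 6 of 28 further kinetochore and centromere genes were lower (21.4%, against 7.44% of all genes tested), as were 2 of 14 entry regulators, 1 of 4 checkpoint genes and 1 of 17 genes of the anaphase promoting complex. The 6 kinetochore and centromere calls were not kept without Tc17 replicate 2. Their differences then ran from -0.49 to -0.40, against -0.66 to -0.41 with all arrays. With the replicate number as a block, 2 of them were not called. None was lower of 12 spindle and cytokinesis genes, the list of *Racgap1*, and none passed of 12 cohesin genes, 5 aurora partners, 4 kinesins and 4 genes of chromosome structure. Over all genes tested 15.7% passed. At an unadjusted p under 0.05 the limma fit had 1 lower cohesin gene, 1 lower aurora partner, 1 higher gene of chromosome structure and 0 kinesins. At that p 14.2% of all genes tested were higher and 12.8% lower, so these counts do not set a role apart. The 10 lower calls became 2 without Tc17 replicate 2 (3.93% of all genes), 5 without CTL replicate 1 (4.35%), 4 without CTL replicate 2 (5.7%) and 10 without Tc17 replicate 1 (6.53%), of which 7 were among the former 10. Tc17 replicate 1 lay above replicate 2 in 78 of the 100 genes, with a median gap of 0.14.

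**Figure D4:**
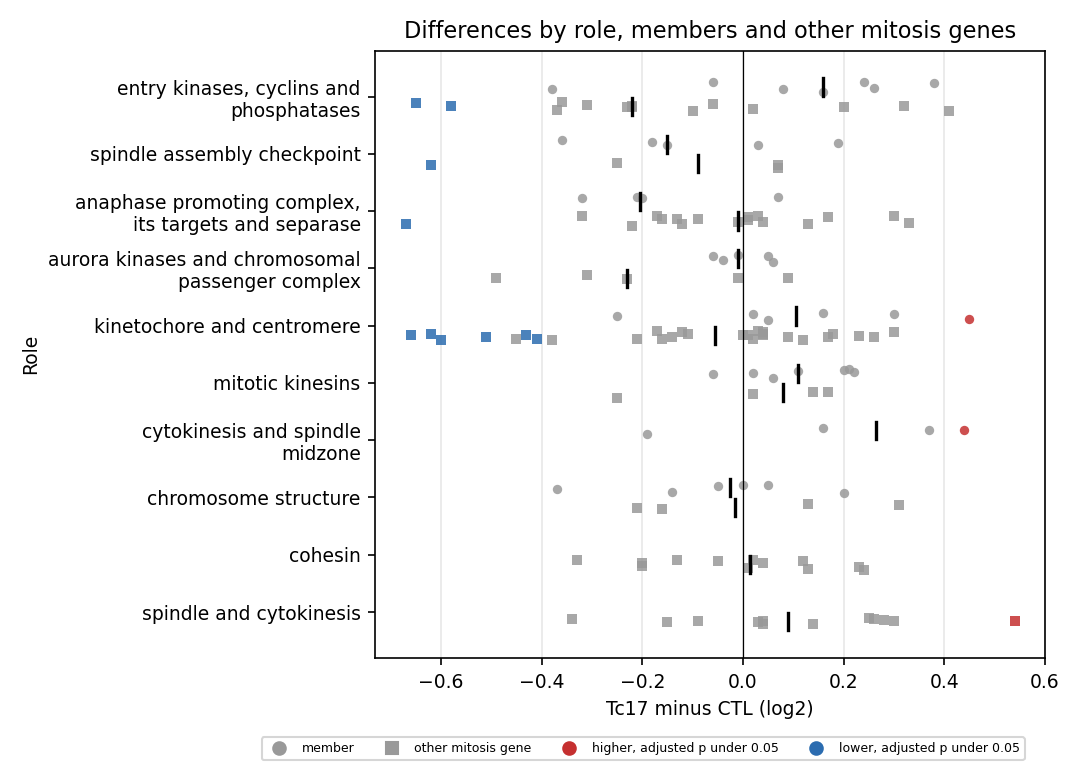
Differences (Tc17 minus CTL, log2) of the 44 members (circles) and of the 100 other mitosis genes (squares) by role. Red genes were higher and blue genes lower past the threshold, grey genes were not called, and a black bar gives each median. The 10 blue squares lie between -0.67 and -0.41 and the red square, *Racgap1*, at 0.54.

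Members with and without a CHR had the same median difference, but only 7 of the 36 with a window lacked one. The median difference was 0.05 in the 29 members with a CHR in a window and 0.05 in the 7 without, with 1 gene called higher in each set (3.45% and 14.3%, against 8.49% and 8.58% of all genes with and without a CHR). It was 0.00 in 41 other mitosis genes with a CHR and 0.01 in 44 without, with 4 lower calls in each (9.76% and 9.09%, against 7.45% and 7.42% of all genes). The gap between the Tc17 arrays is given for comparison. Its median was 0.19 in the members with a CHR and 0.26 in those without, and in the other list 0.23 with a CHR and 0.04 without. Over all genes with a window it was 0.04 with a CHR and 0.03 without. These are descriptions without a test.

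The 4 arrays had medians between 3.18 and 3.20, and correlations across genes, which are not independent replicates, were 0.993 within each group and 0.967 to 0.973 between groups. The T cell markers *Cd3d*, *Cd3e*, *Cd3g*, *Cd8a* and *Cd8b1* were bright on all arrays (7.93 to 10.66). All 5 lay higher on both Tc17 arrays, as did 29.6% of all genes tested, and 4 were called higher, as were 8.22%. *Cd8b1*, at a difference of 0.20, was not called. *Cd4* was at 2.83 to 3.28. Markers of macrophages and monocytes (2.26 to 3.03, 5 genes) and of NK cells (1.92 to 2.59, 2 genes) were at the dim end of the scale, where 2.59 was the level under which genes were left out. Of 3 B cell markers with a probe set, *Cd79b* was at 4.53 to 5.14 and the others at 2.36 to 3.25, and of 2 erythroid genes *Epor* was at 4.07 to 4.48 and *Alas2* at 2.65 to 2.85. Of these other-cell markers 6, both NK genes among them, were under the filter and were not tested, and none of the rest passed (the lowest limma adjusted p was 0.0619, for *Cd79b*, at a difference of 0.43), and their part in the results was not tested.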

How the data were processed

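The authors deposited 1 RMA value per probe set and array, taken here as log2 intensities from their range (1.18 to 13.7). RMA corrects the background, normalises arrays by quantiles and summarises probes; the sources used here state neither its version nor its settings. Of 35557 rows, 21789 had 1 gene symbol in the platform annotation, 1621 several and 12147 none. Where a gene had several, the one brightest on average was kept. Genes with a mean under the 25th percentile (2.59, 4985 genes) were left out, and 14953 were tested. Dim probe sets understate differences. Groups were taken from the labels and compared with limma 3.58.1 (lmFit and eBayes, R 4.3.3), unpaired and two-sided. The script was tested on simulated data. Promoter windows are those of RefSeq on GRCm38.p6. Figures were drawn with Python 3.11.15 and matplotlib 3.10.9.

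The members and lists were chosen with earlier results of these data known. All 44 members may be named, with array values for those past the threshold and for the largest and smallest differences within each role, at most 3 other mitosis genes per direction, and at most 4 promoters that hold a motif, from the members past the threshold and then those of largest difference. Alternatives were a filter at the median or none, median centring, cyclic loess, robust moderation with an intensity trend, the mean of probe sets, every row, the replicate number as a block, and each array left out, where the lone array of a group is assumed to vary like the other group. The number of arrays limits the precision.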

Additional observations from a re-analysis of the deposited data

How the results depend on the processing

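The 2 members called higher were called with no filter, a filter at the median, the intensity trend, cyclic loess, the mean of probe sets and the replicate block, but the count was 0 with median centring and 0 when every row of the table was tested, and 0 to 1 when an array was left out. Members called lower numbered 0 in all of these except when an array was left out (0 to 2). With every row tested, calls over all genes were 419 higher and 265 lower, and those in the other mitosis list 0 and 0. With an array left out, they ran from 834 to 948 higher and 587 to 976 lower over all genes, and from 0 to 2 higher and 2 to 10 lower in the other list. The median over the members ran from -0.06 to 0.12 in those fits and was -0.01 with median centring, which moved the median over all genes from 0.02 to -0.05. The replicate block gave a member median of 0.05 and called 1213 genes higher and 1109 lower. The replicate number was not taken as a pairing because the labels give the number alone. Deviations of same-numbered arrays correlated at 0.0195 over genes, which cannot exclude a pairing, since most genes differ little between replicates.

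Small differences changed sign with the processing, and none of these members was called. With median centring the difference was -0.03 for *Bub3*, -0.05 for *Cenpe*, -0.02 for *Cenpf*, -0.04 for *Kif23*, -0.06 for *Top2a*, and -0.01 for *Aurka*, *Birc5*, *Kif11* and *Mki67*. With cyclic loess it was 0.05 for *Aurkb* and 0.00 for *Incenp*, and with the mean of probe sets -0.07 for *Top2a*. With an array left out it ran from -0.01 to 0.17 for *Ccna2*, -0.18 to 0.06 for *Plk1*, -0.07 to 0.39 for *Cdc25c*, 0.00 to 0.06 for *Bub3*, -0.37 to 0.01 for *Ttk*, -0.45 to 0.03 for *Cdc20*, -0.03 to 0.17 for *Ube2c*, -0.15 to 0.13 for *Aurkb*, -0.16 to 0.09 for *Incenp*, -0.17 to 0.27 for *Birc5*, -0.22 to 0.11 for *Tpx2*, 0.00 to 0.04 for *Cenpe*, -0.01 to 0.33 for *Spc25*, -0.06 to 0.17 for *Kif11*, -0.12 to 0.16 for *Kif23*, -0.15 to 0.04 for *Kif4*, -0.08 to 0.30 for *Kif18a*, -0.01 to 0.42 for *Kif22*, -0.08 to 0.08 for *Top2a*, -0.14 to 0.04 for *Smc2* and -0.07 to 0.18 for *Mki67*. The cause of these changes was not tested.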
